A study of Mus musculus with 45 samples.

Results

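The 9 genes that encode the variant Polycomb complex PRC1.6, Pcgf6, Mga, L3mbtl2, E2f6, Max, Ring1, Rnf2, Rybp and Yaf2, were followed by RNA-seq through the loss of the histone methyltransferase EHMT2 in mouse embryonic stem cells (mESCs). They were taken by gene symbol from 55401 genes in the deposited tables, by a rule that reads no measured value though earlier results of these data were known, and each of the 9 matched 1 row. The series holds 45 libraries in 15 groups of 3. EHMT2-dTAG mESCs carry a degron tag on EHMT2, come from the KH2 line (C57BL/6J x 129S1) as 3 clones, and received dTAG-13, which removes the tagged protein, or DMSO for 24 h, 7 d or 15 d, while a Recovery group had 7 d of dTAG-13 and then 8 d of DMSO. MERVL-GFP mESCs, EHMT2-dTAG cells with a GFP reporter under a MERVL retroviral promoter, spent 72 h in DMSO or dTAG-13 before being sorted into GFP-negative mESCs and GFP-positive 2-cell-like cells (2CLC). Wild-type J1 mESCs (WT) and Dppa4 knockout mESCs (KO), which lack a chromatin protein upstream of the 2-cell-like state, spent 48 h in DMSO or in UNC0638, which blocks the enzymes EHMT1 and EHMT2. All cells grew on mouse embryonic fibroblast feeders.

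PRC1.6 is the variant Polycomb repressive complex 1 that assembles on PCGF6. RING1 and RNF2 (RING1B) are its E3 ligases, which place ubiquitin on histone H2A, and RYBP or YAF2, a pair of paralogous adaptors, bind them. The complex reaches DNA through sequence-specific dimers, MGA with MAX at E-boxes and E2F6 with a DP partner at E2F sites, and through L3MBTL2, a protein with MBT domains. In mESCs it is known for keeping germ-cell and meiotic genes silent.

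The promoter sequences of Mga and Max are shown first, because of the 9 genes these had the lowest ratios of deposited means in 2CLC against mESCs. They come from the RefSeq promoter table (GRCm38.p6), which matched 7 of the 9 genes and has no entry for Rybp and Yaf2. The Mga stretch is the 250 bases before the RefSeq start. In Max the match in capitals, CACGTG, the E-box read by MAX dimers, begins 3 bases before the RefSeq start. The Max stretch therefore holds its 250 bases and the first 3 bases of the RefSeq transcript. They are written 5′ to 3′ along the transcribed strand.
Mga, chr2:119896978-119897227, plus strand: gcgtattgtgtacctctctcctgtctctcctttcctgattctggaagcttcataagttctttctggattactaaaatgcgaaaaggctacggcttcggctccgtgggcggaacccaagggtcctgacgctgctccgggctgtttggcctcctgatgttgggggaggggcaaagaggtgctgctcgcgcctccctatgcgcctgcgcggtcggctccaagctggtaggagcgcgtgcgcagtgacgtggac
Max, chr12:76962246-76962498, minus strand: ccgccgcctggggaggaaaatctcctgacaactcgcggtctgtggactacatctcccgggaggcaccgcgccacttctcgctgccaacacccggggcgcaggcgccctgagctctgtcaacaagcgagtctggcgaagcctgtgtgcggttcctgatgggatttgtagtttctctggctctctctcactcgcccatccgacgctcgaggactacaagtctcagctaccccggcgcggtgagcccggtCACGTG
Of the 7 promoter windows of 300 bases (250 before the start and 50 after it), 1 held CACGTG on either strand, that of Max, beside 7.15% of 32851 mouse promoters in the table. The E2F core TTCCCGC, searched on both strands, was in 0 of the 7 windows and in 4.60% of all promoters. A match is a description of the letters, and no match says only that these letters are not in the window.

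The genes lie on 7 chromosomes (GENCODE vM21, GRCm38). Mga is the longest at chr2:119897228-119969581 with 15340 exonic bases, and Yaf2 the shortest at chr15:93284278-93336935 on the minus strand with 1873 exonic bases. Max lies at chr12:76937269-76962201 and Pcgf6 at chr19:47033617-47050906, both on the minus strand. By this annotation the Max stretch printed above, E-box included, lies wholly before the start of the gene. E2f6 lies at chr12:16810963-16839742 and L3mbtl2 at chr15:81663889-81688315, both on the plus strand. On the minus strand lie also the ligase genes Ring1 (chr17:34020792-34024680) and Rnf2 (chr1:151458004-151500955) and the adaptor Rybp (chr6:100228565-100287485). Chadl lies antisense to L3mbtl2 and shares 13.6% of its 50-base words, and Trmt1l lies antisense to Rnf2 and shares 2.59%, and the authors counted genes with the default parameters of their tool and name no strand setting, so these values are uncertain. The processed pseudogene Rybp-ps holds 8.93% of the 50-base words of Rybp, and reads that fit both were put at 1 of them at random. E2f6, Ring1 and Yaf2 shared 0% with other genes, and Pcgf6, Mga and Max under 1%.

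The 12 libraries of the Dppa4 experiment held 8399885 to 12710949 gene reads each, recovered from the deposited normalized counts (reads divided by the authors' size factors). Dppa4 had 700.4 to 920.5 normalized counts in the 6 WT libraries and 0 in the 6 KO libraries. The 8 pluripotency genes, Pou5f1 and Nanog among them, were all detected in each group, with sums of 47264 to 64405 normalized counts in WT and 60804 to 69284 in KO. The 9 genes of the 2-cell-like state, such as Zscan4c, summed to 75.6 to 5584 in WT and were all at 0 in KO, and the 9 fibroblast genes that stand for feeders summed to 4787 to 7289 in WT and 3646 to 4933 in KO. In a principal component analysis WT DMSO replicate 1 lay apart from its group on the first component and KO UNC0638 replicate 2 on the second. In read counts KO UNC0638 replicate 3 differed most from its group. Its chi-square per gene was 55.6 against replicate 1 and 40.5 against replicate 2, beside 16.1 between replicates 1 and 2. Values without these libraries are given where a result rests on them. For the other 3 experiments the files used here give 1 mean per group, the authors' mean, so no spread, test or leave-one-out value could be had there. The text calls them deposited means.

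On the scale of normalized counts per exonic kilobase in WT DMSO, L3mbtl2 at 325 ± 44.9 (SD, n = 3) and Max at 313 ± 9.62 were highest, followed by Rybp at 229 ± 30.2. Pcgf6 (112 ± 15.8), Rnf2 (101 ± 10.7) and E2f6 (81.3 ± 7.86) came next, then Mga (46.0 ± 6.54) and Yaf2 (42.7 ± 5.40), and Ring1 was lowest at 20.4 ± 9.82. L3mbtl2 and Max, Pcgf6 and Rnf2, Rnf2 and E2f6, and Mga and Yaf2 were neighbours in that order whose libraries overlapped, while the other neighbours were apart. Rnf2 thus stood above its paralog Ring1, and Rybp above its paralog Yaf2, in each of the 4 groups on this scale. In KO DMSO Max was highest at 395 ± 14.7, and Yaf2 was lowest at 14.4 ± 2.55, overlapping Ring1 at 15.8 ± 1.26. The authors' alignment did not allow introns, so reads across splice junctions are not in these values.

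In the deposited means per exonic kilobase, Rnf2 (387 to 639), Rybp (351 to 913) and Max (172 to 610.0) had the 3 highest values of the 9 in each of the 11 groups of EHMT2-dTAG cells, with L3mbtl2 next to Max in DMSO 2CLC (171 and 172). Ring1 was lowest in each of these 11 groups, at 21.7 to 49.8. Libraries of different experiments were normalized separately, so these ranges describe the order within a group and not a difference between experiments.

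**Figure D1:**
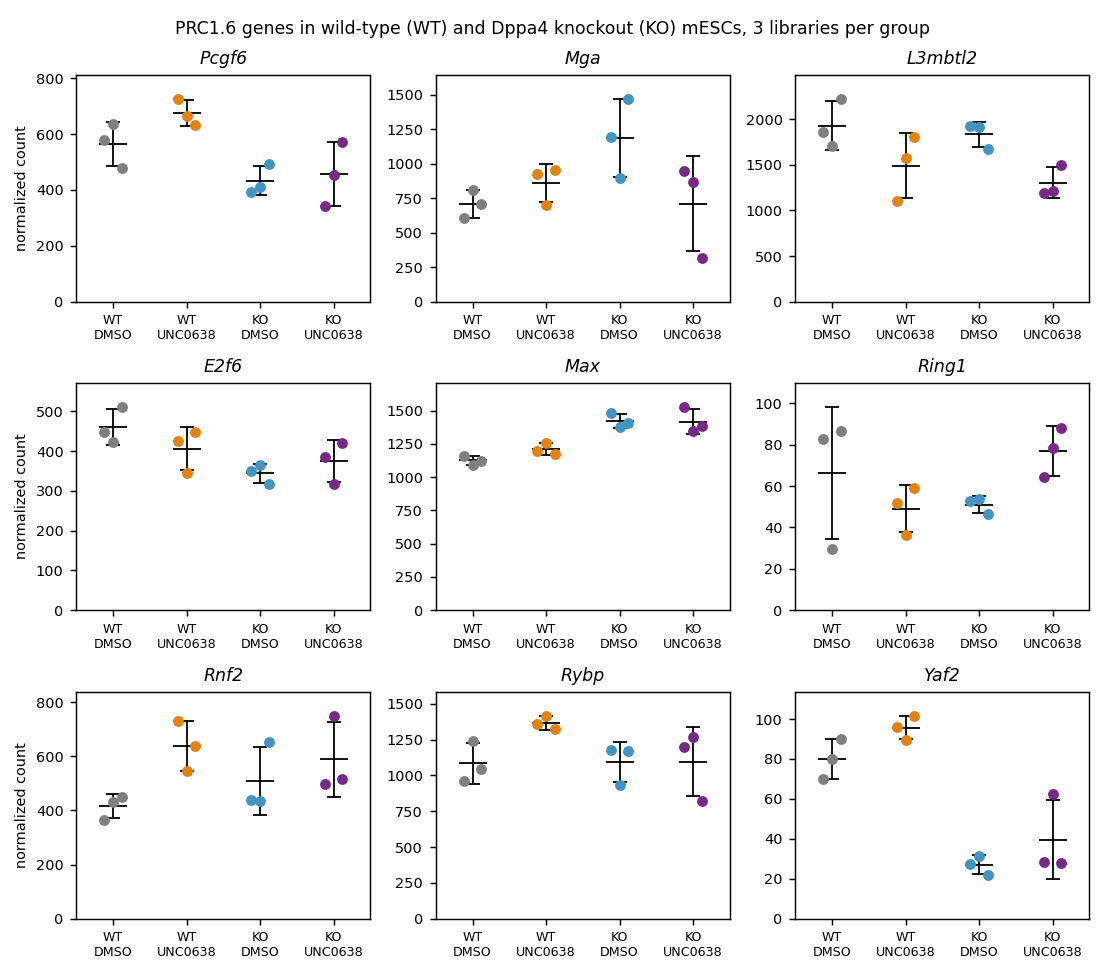
Normalized counts (y axis, linear, from 0) of the 9 PRC1.6 genes in WT and Dppa4 KO mESCs given DMSO or UNC0638 for 48 h. Points are libraries, bars the mean and SD of 3 libraries, and Yaf2 shows both KO groups (22.1 to 62.4) below both WT groups (69.8 to 101).

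Yaf2, an adaptor that binds RING1 and RNF2, was the 1 member of 9 that passed the test between KO and WT mESCs. Its normalized counts were 69.8, 80.0 and 90.0 in WT DMSO and 27.4, 31.6 and 22.1 in KO DMSO. With UNC0638 they were 96.0, 89.7 and 101 in WT and 28.5, 62.4 and 27.9 in KO. Both KO groups lay below both WT groups with no overlap, and KO UNC0638 replicate 2 was the highest of the 6 KO libraries. The values rest on 19 to 127 reads per library. Yaf2 fell by 1.54 on the log2 scale in DMSO, or 2.90-fold (SE 0.35, 95% interval -2.27 to -0.81, limma adjusted p = 0.016) and by 1.35 in UNC0638, or 2.55-fold (SE 0.35, 95% interval -2.08 to -0.62, limma adjusted p = 0.035). These fold changes are on the log2(normalized count + 1) scale. That makes 1 of 9 members in each comparison, beside 6.63% of 17258 tested genes in DMSO and 4.47% in UNC0638.

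The Yaf2 estimate stayed between -1.72 and -1.16 with any 1 library left out, but its call did not always hold. In DMSO the limma adjusted p was 0.066 without WT DMSO replicate 2, 0.063 without WT DMSO replicate 3 and 0.0505 without KO DMSO replicate 1. In UNC0638 it was 0.092, 0.12 and 0.12 without WT UNC0638 replicates 1, 2 and 3, and 0.093 and 0.094 without KO UNC0638 replicates 1 and 3. Without WT DMSO replicate 1 it was 0.024 in DMSO, and without KO UNC0638 replicate 2 it was 0.012 in UNC0638. On the recovered reads edgeR also called Yaf2 in both comparisons, as did DESeq2, with an adjusted p of 0.0013 in DMSO and 0.0081 in UNC0638. WT and KO are separate lines, so the Dppa4 genotype and other differences between the lines cannot be told apart. Fewer cells of a type and less RNA per cell cannot be told apart in bulk samples either, and the 9 genes of the 2-cell-like state were all at 0 in KO, while 2 of 7 tested feeder genes (Acta2 and Thy1) fell in KO in DMSO. The part of these in the Yaf2 value was not tested.

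The 3 tested genes on either side of Yaf2 on chromosome 15 were looked up after its value had been seen. Gxylt1, the next gene below it, had a KO v WT value of 0.82 in DMSO and -0.49 in UNC0638 (limma adjusted p = 0.23 and 0.53). Zcrb1, the next above, had -0.33 and 0.35 (adjusted p = 0.69 and 0.70). Pphln1 was below 0 in both (adjusted p = 0.50 and 0.057), and Prickle1, a planar cell polarity gene, had -1.86 and -2.95 (limma adjusted p = 0.085 and 0.014). The neighbours thus differed among themselves in direction, and Prickle1 was the 1 of these 6 that passed the test, in UNC0638.

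Pcgf6, the subunit that defines the complex, had 579, 635 and 478 normalized counts in WT DMSO and 394, 412 and 493 in KO DMSO. In UNC0638 the counts were 726, 666 and 634 in WT and 342, 454 and 572 in KO. The DMSO groups overlapped and the UNC0638 groups did not, with KO lower. The difference was -0.38 (95% interval -0.79 to 0.04, limma adjusted p = 0.25) in DMSO and -0.60 (95% interval -1.01 to -0.18, limma adjusted p = 0.095) in UNC0638. Without KO UNC0638 replicate 3 the second value was -0.77 with an adjusted p of 0.034.

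Mga, the scaffold protein that pairs with MAX, had 605, 806 and 705 normalized counts in WT DMSO and 1189.8, 898 and 1467 in KO DMSO, groups that did not overlap. In UNC0638 it had 925, 699.8 and 954 in WT and 950.1, 864 and 313 in KO. KO UNC0638 replicate 3, at 313, was the lowest of the 12 libraries. The KO v WT value was 0.73 in DMSO (95% interval 0.06 to 1.40, limma adjusted p = 0.17) and -0.42 in UNC0638 (adjusted p = 0.49). Leaving out KO UNC0638 replicate 3 changed both, to a limma adjusted p of 0.023 for the same value in DMSO, where that library enters only the shared spread, and to a value of 0.09 in UNC0638.

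Max, the obligate partner of MGA and of the MYC family, varied little between libraries, with an SD of 3.08% to 6.74% of the mean in the 4 groups. It had 1162, 1093 and 1122 normalized counts in WT DMSO and 1480.4, 1379 and 1406 in KO DMSO. In UNC0638 it had 1197, 1260.4 and 1176 in WT and 1525, 1344 and 1382 in KO. All 6 KO libraries were above all 6 WT libraries, by 0.34 in DMSO (95% interval 0.05 to 0.62, limma adjusted p = 0.14) and 0.22 in UNC0638 (adjusted p = 0.36). DESeq2 on the recovered reads gave an adjusted p of 0.049 for Max in DMSO, where it called 11% of tested genes.

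The remaining members did not pass the test between KO and WT. E2f6, a repressor of the E2F family, had 423 to 509.6 normalized counts in WT DMSO and 318 to 364 in KO DMSO, apart, with a difference of -0.42 (95% interval -0.80 to -0.04, limma adjusted p = 0.17). In UNC0638 its groups overlapped and the value was -0.12 (adjusted p = 0.76). L3mbtl2, which binds chromatin through its MBT repeats, gave -0.06 and -0.17 in DMSO and UNC0638, and the ligase Rnf2 gave 0.27 and -0.13, all with overlapping groups. Rybp gave 0.01 in DMSO and -0.34 in UNC0638 (adjusted p = 0.30), where all 3 KO libraries (822 to 1265) were below all 3 WT libraries (1321 to 1416). With any 1 library left out, the Rybp value in UNC0638 ran from -0.46 to -0.15. The pseudogene Rybp-ps had 162 to 348 in KO UNC0638, lowest in replicate 3, and 389.6 to 414 in WT UNC0638, also with no overlap. Ring1, at 24 to 101 reads per library, gave -0.22 (95% interval -1.03 to 0.59) and 0.65 (95% interval -0.16 to 1.46), the widest interval of the 9 in each comparison.

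Counted over the 9 members, the libraries of KO and WT did not overlap in 4 members in DMSO and in 5 in UNC0638, beside 29.6% and 24.2% of all tested genes. The median difference of the members was -0.06 in DMSO and -0.17 in UNC0638, beside -0.03 and -0.04 over all tested genes. In DMSO 4 members were above 0 and 5 below, and in UNC0638 2 were above and 7 below.

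**Figure D2:**
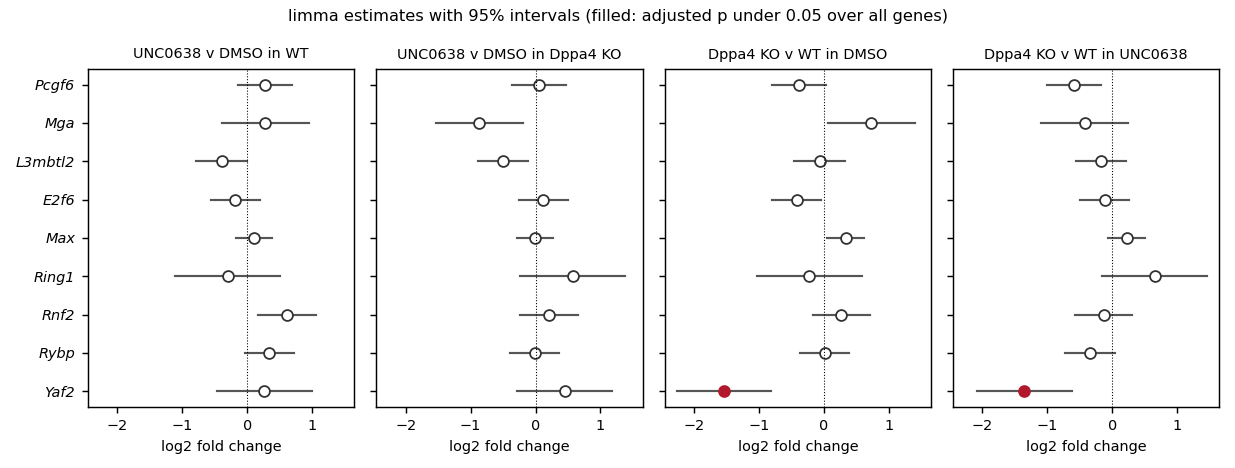
log2 fold changes (x axis) of the 9 PRC1.6 genes (y axis) in 4 comparisons of the Dppa4 experiment, limma estimates with 95% intervals from 3 libraries per group. Filled points, both Yaf2, passed an adjusted p of 0.05 over 17258 genes, and the other estimates lie between -0.87 and 0.73.

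With UNC0638 given for 48 h, none of the 9 members passed the limma test in either genotype. In WT 0% of genes were called, although 1504 had an unadjusted p under 0.05, and edgeR called 0 and DESeq2 19 genes, none of them a member. The 6 tested genes of the 2-cell-like state had a median of 2.54 in WT, and 0 of them passed. A missing call in WT thus does not show a missing change. In KO 0.585% of genes were called, or 101, with 2664 at an unadjusted p under 0.05, 44 called by edgeR and 635 by DESeq2, again with no member among them. The members' median was 0.26 in WT and 0.05 in KO, beside 0.00 over all genes in both.

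Rnf2 had the largest value in WT, with 367, 432 and 450.2 normalized counts in DMSO and 729, 547 and 639.5 in UNC0638, groups that did not overlap. The difference was 0.61 (95% interval 0.17 to 1.06, limma adjusted p = 0.56). The labels do not say what a replicate number marks, and same-numbered WT libraries correlated at 0.10 to 0.43 in their deviations from the group means. A limma fit of the 6 WT libraries with the replicate number as a block, added after seeing the data, gave Rnf2 an adjusted p of 0.027. That fit called 7.37% of genes and 1 member, while the same 6 libraries with no block called 0 genes and gave Rnf2 an adjusted p of 0.35. In KO the Rnf2 counts were 438, 435 and 655 in DMSO and 499, 749 and 518 in UNC0638, with overlap and a difference of 0.21 (limma adjusted p = 0.68). Max (0.11) and Rybp (0.34) were the other members whose WT groups did not overlap, both higher with UNC0638, which makes 3 of 9 beside 19.9% of all genes.

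L3mbtl2 was below 0 in both genotypes. It had 1862, 1705 and 2225 normalized counts in WT DMSO and 1099, 1576 and 1802 in WT UNC0638, which overlapped, with a difference of -0.39 (limma adjusted p = 0.56). In KO it had 1922, 1912 and 1679.6 in DMSO and 1197, 1219 and 1497 in UNC0638, which did not overlap, with -0.50 (95% interval -0.89 to -0.11, limma adjusted p = 0.20). Ring1 was the other member with groups apart in KO, higher at 0.57 (95% interval -0.24 to 1.39, limma adjusted p = 0.51), which makes 2 of 9 beside 16.9% of all genes. Mga in KO gave -0.87 (95% interval -1.54 to -0.20, limma adjusted p = 0.20) with overlapping groups, and -0.36 without KO UNC0638 replicate 3.

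The difference of the UNC0638 effect between KO and WT was called for 0 members and 0% of genes, with 1076 genes at an unadjusted p under 0.05 and 0 called by edgeR or DESeq2. The members' differences ran from -1.15 for Mga (95% interval -2.10 to -0.20, limma adjusted p = 0.78) to 0.88 for Ring1 (95% interval -0.27 to 2.02, limma adjusted p = 0.78). Mga without KO UNC0638 replicate 3 gave -0.64. The intervals of the other 8 members include 0. The narrowest was that of Max, from -0.51 to 0.29, and that of Yaf2 ran from -0.85 to 1.22, so the effect was not shown to be alike in both lines.

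Removal of EHMT2 with dTAG-13 moved none of the 9 deposited means past 2-fold at 24 h, 7 d or 15 d. These ratios are of deposited means plus 1, have no replicate error, and are descriptions with no test. Past 2-fold were 4.92% of 17997 genes at 24 h, 8.2% at 7 d and 4.78% of 17316 genes at 15 d. Past 1.5-fold, again with 0 of 9 members, were 14.1%, 20.4% and 11.9%. The DMSO cultures of 7 d against those of 24 h gave 1.94% past 2-fold and 9.2% past 1.5-fold, and 0 members past either.

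Ring1, one of the E3 ligases, had the lowest ratio of the members at 24 h, with a deposited mean of 113 after dTAG-13 and 157 in DMSO (log2 ratio -0.47), and at 7 d it had 96.6 and 119 (-0.30). Its DMSO means alone went from 157 at 24 h to 119 at 7 d (-0.40), a ratio between those values. Mga had 4303 against 4672 at 24 h (-0.12), 3824 against 4857 at 7 d (-0.34) and 2403 against 2439.6 at 15 d (-0.02). Yaf2 was above 0 at all 3 times, with 139 against 111, 152 against 128 and 486 against 392, ratios of 0.32, 0.25 and 0.31.

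Pcgf6 ran from -0.15 to 0.08 on the log2 scale, with 860.1 against 898 at 24 h, 940.5 against 888 at 7 d and 1195 against 1330.2 at 15 d. L3mbtl2 had 1917 against 2499 at 15 d (-0.38), the lowest ratio of the members there, beside -0.08 at 24 h and 0.10 at 7 d. E2f6 ran from -0.18 to 0.11 and Max from -0.08 to 0.31 over the 3 times. Rnf2 was highest at 7 d (2329 against 1938, 0.26) and Rybp at 24 h (2634 against 2265, 0.22).

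The members' median ratio was -0.06 at 24 h, 0.11 at 7 d and -0.08 at 15 d, beside 0.01, 0.01 and -0.02 over all genes. At 7 d 7 of 9 members were above 0. At 15 d 8 of 9 were below 0, but with the median of all genes subtracted Mga (0.00), Rnf2 (0.01) and Rybp (0.01) turned above it, leaving only 5 below. In the same cells the 9 genes of the 2-cell-like state were all past 2-fold higher at each time, with medians of 3.34, 4.42 and 4.56.

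Mga had the ratio farthest from 0 after washout of dTAG-13. Its deposited mean was 4014 in Recovery, 2439.6 in DMSO of 15 d and 2403 in dTAG-13 of 15 d, or 0.72 and 0.74 above them on the log2 scale. Both ratios use the same Recovery libraries. Each was past the 95th percentile of all genes, 0.66 against DMSO and 0.62 against dTAG-13, and past 1.5-fold but not 2-fold. It was the 1 member past 1.5-fold, beside 10.4% of genes against DMSO and 16.2% against dTAG-13, while past 2-fold were 0 members beside 2.69% and 6.68% of genes. The other 8 members ran from -0.26 (Ring1) to 0.21 (Rybp) against DMSO and from -0.32 (Yaf2) to 0.23 (Rybp) against dTAG-13. The summed deposited means of the feeder genes were 4827 in Recovery, 9224 in DMSO and 11449 in dTAG-13; their part in the Mga ratios after washout was not tested.

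**Figure D3:**
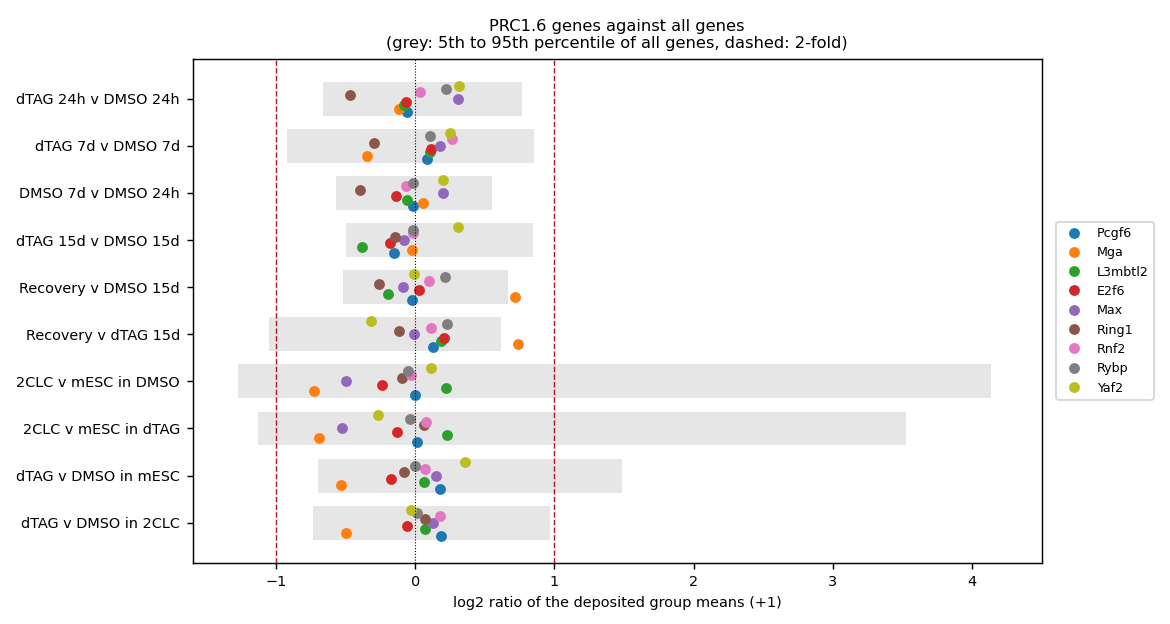
log2 ratio of deposited group means plus 1 (x axis) for each of the 9 PRC1.6 genes (coloured points) in 10 comparisons (y axis), with no replicate error. Grey bars span the 5th to 95th percentile of all genes passing a mean of 10, dashed lines mark 2-fold, and Mga lies outside the grey bar in both Recovery comparisons at 0.72 and 0.74.

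In sorted cells Mga and Max, the E-box pair, were the members with the lowest ratios of 2CLC against mESCs. Mga had deposited means of 1423 in 2CLC and 2358 in mESCs under DMSO (-0.73), and 1009 and 1627 under dTAG-13 (-0.69). Max had 617 and 873 under DMSO (-0.50), and 673 and 969 under dTAG-13 (-0.52). Mga was thus 1.66 times and 1.61 times lower in 2CLC, and Max 1.41 times and 1.44 times lower. The Max promoter holds the E-box printed above, and that of Mga holds none in its window. A link between these letters and the ratios was not tested.

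The other 7 members were nearer to level. L3mbtl2 was higher in 2CLC at 0.22 and 0.23, with 1016 against 872 and 1066 against 910.0. Pcgf6 had 736 in both populations under DMSO (0.00), and 839 and 832 under dTAG-13 (0.01). E2f6 had -0.24 and -0.13, and Rnf2, Rybp and Ring1 stayed between -0.09 and 0.08. Yaf2 was 0.12 under DMSO and -0.27 under dTAG-13.

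Counted together, 1 of 9 members, Mga, was past 1.5-fold in 2CLC against mESCs in each treatment, beside 42.9% of 17331 genes under DMSO and 39.6% under dTAG-13. Past 2-fold were 0 members, beside 24.2% and 20.8% of genes. The members' medians were -0.06 and -0.04, beside -0.03 and -0.06 over all genes, so by median the 9 genes lay near the middle of all genes. Under DMSO 2 members were above 0 and 7 below, and under dTAG-13 4 were above and 5 below. The genes of the 2-cell-like state, by contrast, had medians of 7.58 and 4.77, and 4 of 8 pluripotency genes were past 2-fold lower in each treatment. Of 7 feeder genes, 2 under DMSO and 4 under dTAG-13 were past 2-fold higher in 2CLC and 1 was below 0 in each, while the summed deposited means of all 9 were lower in 2CLC, at 3972 against 6317 and 6649.9 against 7828. The part of these lists in the Mga and Max ratios was not tested.

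Within each sorted population dTAG-13 also left the members short of 2-fold. Mga was lowest in both, with 1627 against 2358 in mESCs (-0.53) and 1009 against 1423 in 2CLC (-0.49). Yaf2 was highest in mESCs, with 184 against 143 (0.36), and Pcgf6 highest in 2CLC, with 839 against 736 (0.19). Past 1.5-fold were 0 members, beside 19.7% of genes in mESCs and 18.8% in 2CLC, and past 2-fold were 0 members beside 9.56% and 6.86%. The summed deposited means of the 9 feeder genes were 6317 in DMSO and 7828 in dTAG-13 in mESCs, and 3972 and 6649.9 in 2CLC, and 5 of the 7 that passed the mean filter were past 2-fold higher in each; their part in the Mga ratios was not tested.

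**Figure D4:**
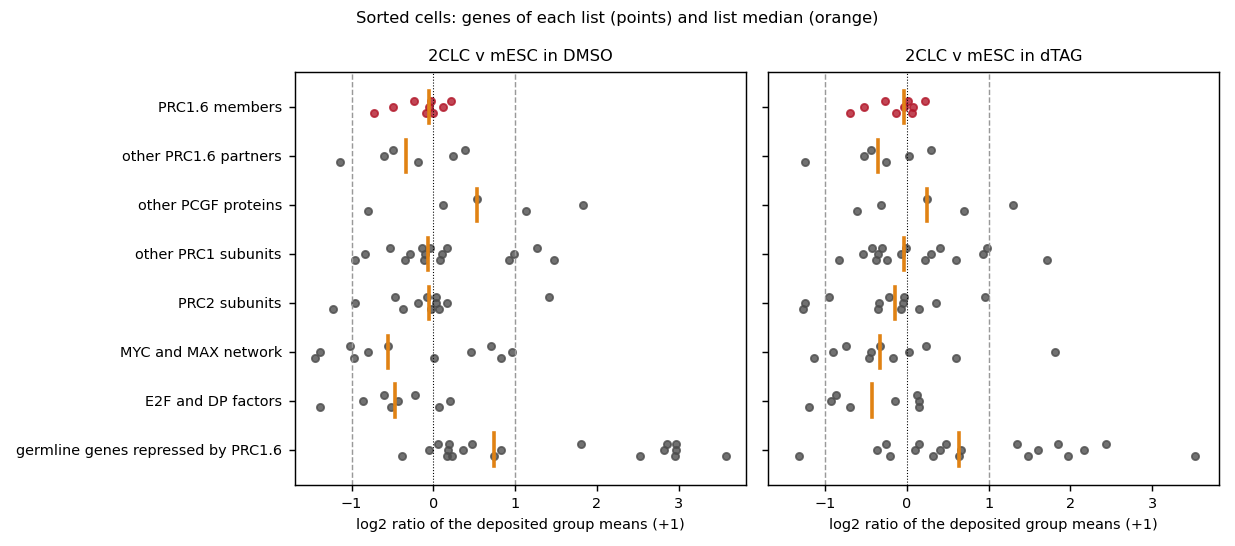
log2 ratios of deposited means plus 1 in 2CLC against mESCs (x axis) for genes of 8 lists (y axis) under DMSO (left) and dTAG-13 (right), with the list median in orange and 2-fold as dashed lines. The PRC1.6 genes (red) lie between -0.73 and 0.23, while germline genes repressed by PRC1.6 reach 3.57 under DMSO and 3.52 under dTAG-13.

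The other proteins that join PRC1.6 were described from a list of 6 (Tfdp1, Cbx1, Cbx3, Wdr5, Hdac1 and Hdac2). Tfdp1, a DP partner of E2F6, was the 1 past 2-fold in 2CLC, at 1162 against 2572 under DMSO (-1.15) and 1315 against 3105 under dTAG-13 (-1.24). The list's medians were -0.34 and -0.35. All counts past 2-fold in these lists stand beside 2676 genes of 17331 that were past 2-fold higher in 2CLC and 1518 lower under DMSO, and 2406 and 1204 under dTAG-13. Between KO and WT in DMSO Tfdp1 also fell, from 1976 ± 226 to 1173 ± 159 normalized counts (SD, n = 3, log2 fold change -0.75, limma adjusted p = 0.015). Its paralog Tfdp2, of the E2F and DP list, rose in the same comparison, from 562 ± 52.7 to 1072 ± 121 (0.93, limma adjusted p = 0.013), while the other 7 of that list did not pass the test. Of all 17258 tested genes 6.63% passed in that comparison. In UNC0638, where 4.47% of all genes passed, 0 of the 8 E2F and DP genes did. Against mESCs Tfdp2 was lower in 2CLC, short of 2-fold, at -0.86 under DMSO and -0.87 under dTAG-13. In UNC0638, KO v WT, Wdr5, a WD-repeat adaptor, was the 1 of 6 that passed, from 3874 ± 90.7 to 5632 ± 765 (0.53, limma adjusted p = 0.049).

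The PCGF proteins that define the other PRC1 complexes (Pcgf1, Pcgf2, Pcgf3, Bmi1 and Pcgf5) gave 0 of 5 genes passing the test in any comparison of the Dppa4 experiment. In 2CLC against mESCs 2 of 5 were past 2-fold higher under DMSO, Pcgf1 at 74.6 against 20.4 (1.82) and Bmi1 at 219 against 99.2 (1.14), beside 24.2% of all genes past 2-fold in either direction. Under dTAG-13 it was 1 of 5, Pcgf1 at 59.8 against 23.7 (1.30). Under DMSO 4 of the 5 were above 0 and 1 below, and under dTAG-13 3 were above and 2 below. Pcgf2 was below 0 in both, at -0.80 and -0.60. Pcgf6 had 0.00 and 0.01 in the same comparisons.

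Of 16 other PRC1 subunits, 2 were higher in KO than in WT in DMSO, Fbrs from 181 ± 11.7 to 330.4 ± 49.8 (0.86, limma adjusted p = 0.044) and Fbrsl1 from 1438 ± 199 to 2271 ± 294 (0.66, limma adjusted p = 0.033), both paralogs of Auts2. These stand beside 6.63% of all 17258 tested genes called in DMSO. In UNC0638 0 of the 16 passed, beside 4.47% of all genes. In 2CLC Cbx8, a chromobox protein of canonical PRC1, was past 2-fold higher under DMSO, at 72.2 against 29.5. Under dTAG-13 Cbx8 fell short of 2-fold, at 0.98. Of the 16, 7 were above 0 and 9 below in each treatment. Lowest was another chromobox gene, Cbx7, at -0.96 under DMSO and -0.83 under dTAG-13. In Recovery against dTAG-13 Auts2 (-1.31) and Bcorl1 (-1.13) were past 2-fold lower, beside 936 of all 17316 genes. Of 12 PRC2 subunits, Phf19 rose (1.31, limma adjusted p = 0.0092) and Jarid2 fell (-0.58, limma adjusted p = 0.042) in KO v WT in UNC0638. In DMSO 0 of the 12 passed the test. In 2CLC Mtf2 was past 2-fold higher under DMSO (5375 against 2022), Phf19 lower in both treatments and Phf1 lower under dTAG-13.

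In the MYC and MAX network of 11 genes, Mycl, a MYC family member that pairs with MAX, fell in KO v WT in DMSO, from 225 ± 66.3 to 113 ± 36.5 (-0.99, limma adjusted p = 0.042). It was the 1 of 11 that passed there, beside 6.63% of all genes, and 0 of 11 passed in UNC0638. In 2CLC under DMSO 3 of 11 were past 2-fold lower, Mycn (1202 against 3273), Mxi1 (246 against 645) and Mycl (193 against 391). Under dTAG-13 Mxi1 was the 1 past 2-fold lower (233 against 512) and Mlxipl the 1 past 2-fold higher (36.8 against 9.75). The list's median was -0.55 under DMSO and -0.32 under dTAG-13, beside -0.50 and -0.52 for Max itself. At 7 d of dTAG-13 Myc was past 2-fold higher (330.2 against 87.9) and Mlxipl lower (39.3 against 112), beside 723 of all 17997 genes higher and 753 lower. Of the E2F and DP factors 1 of 8 was past 2-fold in 2CLC, E2f2, lower in both treatments.

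The genes that PRC1.6 is known to silence in mESCs were represented by 25 germline genes, of which 17 passed the expression filter of the Dppa4 experiment. Between KO and WT 5 of the 17 fell in DMSO and 6 in UNC0638, and 0 rose, beside 733 of all 17258 tested genes that fell in DMSO and 467 in UNC0638. Sohlh2, a germ-cell transcription factor, had 101 ± 40.8 normalized counts in WT DMSO and 0 in all 3 KO DMSO libraries (limma adjusted p = 1.7e-05), and 153 ± 35.6 and 5.14 ± 5.79 in UNC0638 (limma adjusted p = 0.00019). Mael, a piRNA pathway gene, had 61.1 ± 32.4 in WT and 3.06 ± 5.29 in KO in DMSO, and 67.4 ± 10.4 and 1.81 ± 1.84 in UNC0638. Ddx4, a germ-cell RNA helicase, had 16.6 ± 4.31 in WT DMSO and was at 0 in KO DMSO, and Mov10l1, a piRNA helicase, had 20.3 ± 4.83 and 0. Dazl had 25.3 ± 13.2 in WT UNC0638 and 0 in KO UNC0638.

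The list's median was -1.24 in DMSO and -1.52 in UNC0638, or -1.02 and -1.37 with genes at 0 in 1 group set to the bound that 3 reads per library give. The genes of the 2-cell-like state were also lower in KO, where 5 of 6 tested fell in DMSO and 6 of 6 in UNC0638, with all 9 at 0. Their part in the germline values was not tested. With UNC0638 1 of 17 germline genes passed the test in KO, Majin, a meiotic telomere gene, which had 13.9 ± 3.03 in DMSO and 0 in UNC0638 (limma adjusted p = 0.036), and 0 of 17 in WT.

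In the sorted cells 8 of 19 germline genes were past 2-fold higher in 2CLC under DMSO and 0 lower, with a median of 0.74, beside 2676 of 17331 genes higher and 1518 lower. Under dTAG-13 8 were higher and 1, Sohlh2, lower, with a median of 0.64, beside 2406 and 1204 of all genes. The germline genes named above for KO differed in 2CLC against mESCs. Under DMSO and dTAG-13 Sohlh2 had -0.38 and -1.32, Ddx4 0.18 and 0.32, and Mov10l1 0.74 and -0.25. Dazl had 2.86 and 1.97. Stk31, a testis-expressed Tudor-domain gene, had 162 against 12.8 under DMSO and 234 against 19.6 under dTAG-13, and Mael, named above, had 94.7 against 11.4 under DMSO. In bulk EHMT2-dTAG cultures 1 of 20 was past 2-fold at 24 h, lower (Stag3, a meiotic cohesin, 574 against 1205), and 9 were above and 11 below 0, with a median of -0.09. At 7 d 4 of 20 were past 2-fold lower, with Meioc (186 against 611) and Stra8 (17.5 against 42.7) among them, beside 753 of 17997 genes. At 15 d 3 of 19 were past 2-fold higher, with Sohlh2 at 557 against 214, beside 693 of 17316 genes. Over the same times none of the 9 PRC1.6 genes was past 1.5-fold.

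Over the 12 libraries of the Dppa4 experiment the genes whose pattern was most like a member's were found by Pearson correlation of log2(normalized count + 1). For Pcgf6 these were Hspd1 (r = 0.94), Dnah11 (0.92) and Gm9531 (0.91), and for Mga Rsf1 (0.98), Apc (0.96) and Ubn2 (0.95). For L3mbtl2 they were Aldh9a1 (0.96), Cdca5 (0.94) and Bcar1 (0.93), and for E2f6 Snora64 (0.90), Dus4l (0.90) and Psmc3 (0.89). None of the 12 was another member, but the members are few among the 17258 genes searched, so this says little about them. Between members r ran from -0.86 (Max and Yaf2) to 0.69 (Pcgf6 and Yaf2). The points share genotype, treatment and library depth, so these values are descriptions over libraries that fall into groups.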

How the data were processed

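RNA-seq of 45 libraries was analysed. Per the study's methods and notes, the authors trimmed reads with Trim Galore 0.6.7, aligned them with STAR 2.7.10, introns not allowed and reads with many places put at 1 at random, and counted genes with TE Counts. The deposited signal columns are counts divided by DESeq2 1.34.0 size factors, per library in the Dppa4 experiment and as the authors' group means in the others. Deposited tables of the authors' comparisons (fold changes, p-values) and repeat tables were not used.

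Whole reads were recovered for 100% of values (tolerance 0.001 reads). The test was limma 3.58.1 with trend on log2(normalized count + 1) over all 12 libraries, for 17258 genes passing the edgeR 4.0.16 filter in R 4.3.3, with Benjamini-Hochberg adjustment over all of them and a threshold of 0.05. It was also run on simulated counts with changes of 2-fold or more and the same dispersion for all genes, so smaller changes were not covered. Group means with an average of at least 10 gave ratios of mean plus 1. Alternatives were edgeR, DESeq2 1.42.0, TMM, no filter, other pseudocounts, a replicate block and each library left out. At most 4 genes per list were named, those with the largest change. Values of 1 gene among the other PRC1 subunits are not reported here. Members, lists and rules were chosen with earlier results of these data known.

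The study's methods give 3 clonal lines; where libraries are not separate cultures, p-values measure only the spread between them. Deviations of same-numbered libraries from their group means correlated at 0.10 to 0.43 in WT (3 of 3 pairs over 0.1). They correlated at -0.09 to 0.15 in KO and at -0.09 to 0.17 between WT and KO. KO DMSO replicate 2 and KO UNC0638 replicate 3, of different numbers, reached 0.12, above the lowest WT pair. That the numbers pair the WT libraries thus rests on these correlations only, as the labels do not say what a number marks.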

Additional observations from a re-analysis of the deposited data

How the results depend on the processing

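Among the 45 member values of the Dppa4 experiment (9 genes, 5 comparisons), 9 changed sign under some alternative, none of them a value that passed the test, and both Yaf2 values kept their sign under all. Of members past 2-fold in deposited means, 0 in each of 10 comparisons, pseudocount 10, no filter and median centring also gave 0, and 1.5-fold gave 1 in Recovery v DMSO, 1 in Recovery v dTAG, 1 in 2CLC v mESC in DMSO and 1 in 2CLC v mESC in dTAG.

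Genes changed by UNC0638 in WT numbered 0, 19 by DESeq2 and 0 to 1 with a library left out (1 without WT DMSO replicate 3 or WT UNC0638 replicate 3). In KO the 101 became 44 by edgeR, 635 by DESeq2, 12 with no filter and 2 to 628 with a library left out (KO UNC0638 replicates 1, 2 and 3 left 628, 2 and 36, WT UNC0638 replicates 1, 2 and 3 left 28, 25 and 27, KO DMSO replicates 1 and 2 left 18 and 43, and WT DMSO replicate 2 left 51). For KO v WT in DMSO 1145 became 1902 by DESeq2 and 312 to 1827 with a library left out (312 and 513 without WT DMSO replicates 2 and 3, 406 and 595 without KO DMSO replicates 1 and 2, 1827 without KO UNC0638 replicate 3), and in UNC0638 772 became 1433 by DESeq2 and 188 to 848 (491, 188 and 219 without WT UNC0638 replicates 1, 2 and 3). The difference of effects had 0 to 1 (1 without WT UNC0638 replicate 3). Members changed, 1 in each KO v WT comparison, became 2 by DESeq2 in DMSO, 0 with no filter in UNC0638 (Yaf2 adjusted p = 0.052), and 0 to 2 in DMSO and 0 to 1 in UNC0638 with a library left out. For UNC0638 against DMSO in either genotype, and for the difference, they were 0 with any library left out. The cause of these shifts was not tested.

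A replicate block over all 12 libraries gave 346 genes for UNC0638 in KO, 1996 for KO v WT in DMSO and 1244 in UNC0638, and changed no member's call. Within the WT libraries, a fit added after seeing the data, the block gave 1272 genes and 1 member, Rnf2. Depth limits Ring1 and Yaf2 most, at 19 to 127 reads per library.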
